A study of Mus musculus with 6 samples.

Results

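RNA recovered with tagged DAZL was compared with RNA recovered with the poly(A)-binding protein PABP1, from the same kind of mouse cells, on 4 of the 6 one-colour whole-genome arrays of the series. The 4 arrays were chosen by their labels, 2 of RNA precipitated with an antibody to GFP and 2 of RNA precipitated with an antibody to PABP1. The other 2 arrays hold total input RNA and give the level before precipitation. All 6 come from V6.5-derived embryonic stem cells of a mixed C57BL/6 and 129SV background that carry Dazl fused to GFP and V5. The cells were freed of feeders, kept on gelatin in differentiation medium for 12 days, and are labelled as primordial germ cells made in vitro. Protein and RNA were crosslinked with ultraviolet light before the immunoprecipitation (IP). The tagged Dazl is carried by the controls too, since the PABP1 IP and the input were made from the same cells. The promoter that drives it, and whether the line is 1 clone, are not given in the sources used here. None of the 6 arrays holds an IP with a non-specific antibody.

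DAZL is a germ cell protein that binds motifs in the untranslated regions of selected mRNAs and acts on their translation and stability. PABP1, the product of Pabpc1, binds the poly(A) tail that nearly all mature mRNAs carry, and it is used as a measure of general mRNA binding. DAZL is also known to contact poly(A)-binding protein. A comparison of the 2 proteins therefore asks which mRNAs came down with DAZL beyond what a general mRNA-binding protein brought down.

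Each value below is the processed signal of a probe divided by the 75th percentile of its array, so a signal of 1 equals that percentile. A difference is the mean log2 signal of the GFP IP minus that of the PABP1 IP, followed by its standard error (SE) from limma with 2 arrays per group. A gene passed when its limma p, adjusted by Benjamini-Hochberg over 14930 genes, was under 0.05. GFP IP replicate 2 and PABP1 IP replicate 1 lay on slide 1 with both inputs, and GFP IP replicate 1 and PABP1 IP replicate 2 on slide 2, so each slide gives its own difference. Between 48.2% and 52.6% of spots were well above background on the 4 IP arrays, against 41.5% and 46.1% on the inputs, and 0 spots were saturated. Replicates of an IP correlated at 0.981 (GFP) and 0.982 (PABP1) across 14924 genes, and arrays of different IPs at 0.872 to 0.903; genes are not independent replicates. Whether replicates were separate cultures is not said in the labels, so a p-value speaks of the spread among these arrays alone, which may be technical.

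The mRNA of the tagged protein itself separated the 2 IPs most. The signal of Dazl was 9.20 and 15 on the GFP IP arrays (replicates 1 and 2), 0.237 and 0.241 on the PABP1 IP arrays and 0.883 and 0.807 in the inputs. The 2 GFP arrays thus lay above both inputs, and the 2 PABP1 arrays below them. The difference was 5.62 ± 0.26, or 49.1-fold (adjusted p = 0.000459), the largest of any named gene, and it was 5.98 on slide 1 and 5.25 on slide 2. A second Dazl probe gave 3.20. Pabpc1, which encodes PABP1, had signals of 139 and 405 in the GFP IP, 660 and 228 in the PABP1 IP and 388 and 474 in the inputs. Its IP arrays overlapped, and the difference of -0.71 ± 0.69 did not pass (adjusted p = 0.396). On each slide taken alone the difference was nearly the same, at -0.70 and -0.71, and with the slide as a block it passed (adjusted p = 0.011), as it did with spike-in scaling (-2.02). Its sign was not stable, since it was 0.68 after quantile normalization and 0.79 after cyclic loess, and 0.058 without PABP1 IP replicate 1 and 0.062 without GFP IP replicate 1, with adjusted p from 0.348 to 0.95.

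The mRNA signals of the 2 IPs differed broadly. Of the 14930 genes, 9497 passed (63.6%), 3308 higher in the GFP IP (22.2%) and 6189 lower (41.5%). At least 2-fold and past the threshold were 2542 genes higher in the GFP IP (17.0%) and 4895 lower (32.8%), and at least 8-fold were 265 and 199. The arrays of the 2 IPs did not overlap for 12152 genes (81.4%), and 13947 had the same sign on both slides (93.4%). For all 9497 genes that passed the arrays did not overlap. This fixes the sign wherever both slides give a difference, so the same sign in 9496 of them was no separate check. The median gene lay at -0.59, with -0.62 on slide 1 and -0.53 on slide 2. A member count below should be read against the 22.2% higher and 41.5% lower of all genes.

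The split between higher and lower genes depended on how arrays were scaled, and little on background correction. Dividing an array by a constant moves all its genes together, while quantile normalization, cyclic loess and normexp background correction also move genes relative to each other. Quantile normalization moved the median gene by 0.31 and gave 3965 higher and 4925 lower, and cyclic loess moved it by 0.53 and gave 4596 and 4114. The median of all probes moved it by 0.39 (3775 higher and 4128 lower), and the 75th percentile of probes detected on all 6 arrays moved it by 0.37 (4151 and 4553). Normexp background correction moved it by 0.24 (2768 and 5664). Scaling to the spike-in control spots moved it by -1.31 and left 664 higher and 10261 lower. Each class is therefore placed by its position, the median difference of its tested members minus the median over all genes, and so it does not change when an array is multiplied by a constant. The SD after a position comes from the spread of the class between the 2 arrays of each IP. It leaves out the pairing by slide, and the positions on the 2 slides can lie further apart than it. The DAZL side and the PABP1 side mean above and below the median gene. No test was run on any class.

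**Figure D1:**
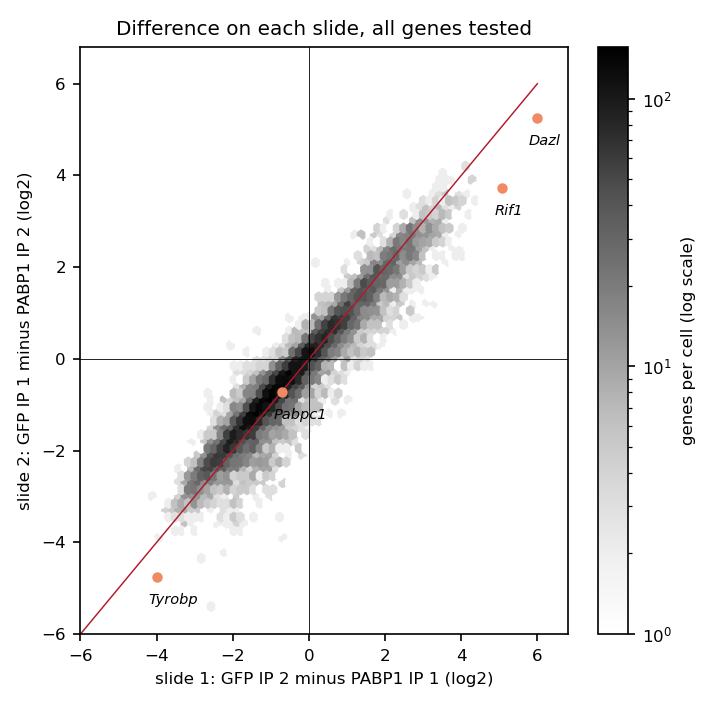
Difference between the GFP IP and the PABP1 IP on slide 1 (x axis) and on slide 2 (y axis), in log2 units, for every gene tested; the shade gives the number of genes per cell on a log scale and the line marks equal values. Most genes lie along the line, 13947 of 14930 with the same sign on both slides; Dazl lies at the upper right at 5.98 and 5.25 and Tyrobp at the lower left at -3.99 and -4.76.

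Genes of the mitochondrial respiratory chain, which passes electrons to oxygen and drives ATP synthase, had the lowest position of the 43 classes. It was not the lowest after quantile normalization (-0.996) or cyclic loess (-1.03), where mitochondrial ribosome, fibroblast and muscle genes lay lower. Of 83 tested members 0 were higher in the GFP IP, 79 were lower and 4 did not pass, and the position was -1.73 ± 0.15 (-1.93 on slide 1 and -1.67 on slide 2). The shift ran through the complexes. All 15 complex IV genes and all 17 ATP synthase genes were lower, as were 35 of 37 complex I genes, 8 of 9 complex III genes and 3 of 4 complex II genes. Atp5l, a membrane subunit of ATP synthase, had signals of 49.0 and 50.5 in the GFP IP and 623 and 475 in the PABP1 IP, against 103 and 95.9 in the inputs. It was lower by 10.9-fold (-3.45 ± 0.19, adjusted p = 0.000459), with PABP1 arrays above input and GFP arrays below it. Ndufa3, a subunit of complex I, showed 23.1 and 22.8 against 299 and 222 (-3.49 ± 0.21), and another Ndufa3 probe gave -2.18. Cox6b1, a subunit of cytochrome c oxidase, showed 4.07 and 4.31 against 47.8 and 40.7 (-3.40 ± 0.17). The class median stayed below 0 under each scaling tried, from -3.63 with spike-in controls to -1.09 with cyclic loess, where 54 members were lower and 3 higher.

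The machinery that builds mitochondria went the same way. Of 78 proteins of the mitochondrial ribosome, which translates the mitochondrial genome, 72 were lower in the GFP IP, 2 were higher and 4 did not pass, at a position of -1.53 ± 0.25. Both subunits took part, with 27 of 29 small-subunit and 45 of 49 large-subunit genes lower. Mrps21 of the small subunit had 3.61 and 3.15 in the GFP IP, 33.1 and 30.4 in the PABP1 IP and 5.51 and 5.22 in the inputs (-3.23 ± 0.16, adjusted p = 0.000459). Mrpl52 of the large subunit had 50.5 and 52.7 against 522 and 335 (-3.02 ± 0.25). Of 25 genes of mitochondrial protein import, 21 were lower, 2 higher and 2 did not pass, at -1.49 ± 0.20. Tomm6, a small subunit of the outer membrane translocase, had 12.1 and 11.5 against 130 and 111 (-3.35 ± 0.17), while Tomm34, a cytosolic import factor, was higher (2.65, another probe 3.06).

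**Figure D2:**
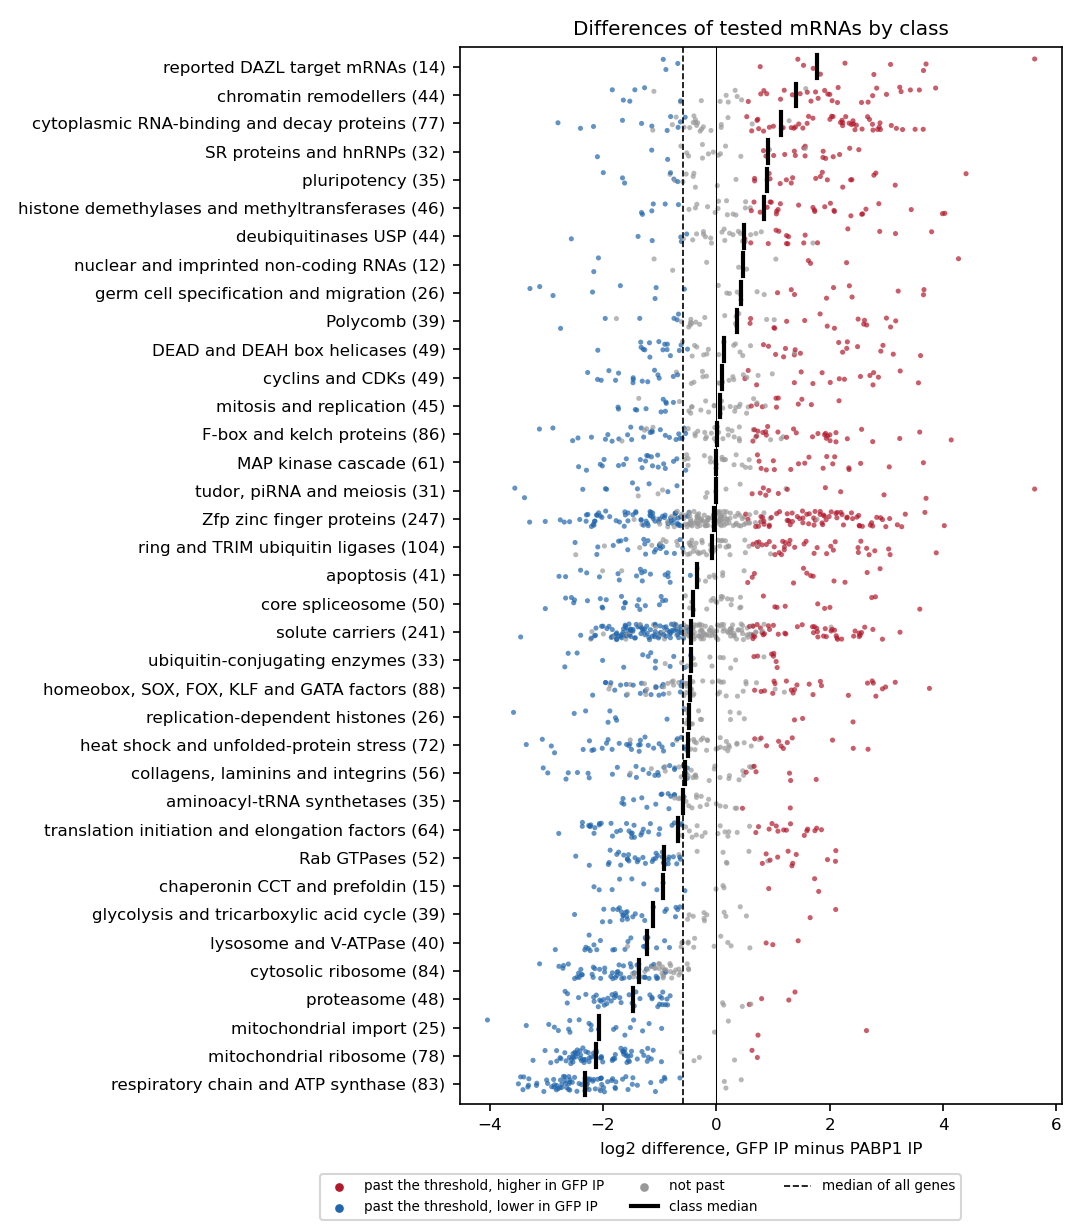
Log2 difference, GFP IP minus PABP1 IP, of each tested member (points) by class, with the number of tested members after each class name; black bars are class medians and the dashed line is the median of all genes at -0.59. The classes at the bottom, of mitochondria and proteasome, lie almost wholly to the left, those at the top, of DAZL targets, chromatin and RNA-binding proteins, lie mostly to the right, and those in between spread over both sides.

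Genes of protein turnover followed on the PABP1 side. Of 48 genes of the proteasome, the protease complex that degrades ubiquitin-tagged proteins, 40 were lower in the GFP IP, 4 were higher and 4 did not pass (position -0.88 ± 0.10). Psma6, a subunit of the core particle, had 15.7 and 16.0 against 113 and 85.2 (-2.63 ± 0.20). Psmb10, an inducible catalytic subunit, had 20.1 and 15.2 against 116 and 106 (-2.67 ± 0.20). Of the core particle's alpha and beta subunits 17 of 18 were lower, and of its regulatory subunits 17 of 21 were lower and 2 higher. Of 40 lysosome and V-ATPase genes 23 were lower and 3 higher (-0.64 ± 0.14), and of 39 genes of glycolysis and the tricarboxylic acid cycle 26 were lower and 2 higher (-0.52 ± 0.27). The position of the last class was 0.08 after quantile normalization and 0.03 after cyclic loess.

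Proteins of the cytosolic ribosome, whose mRNAs are among the most abundant of a cell, depended on the slide. Of 84 tested, 0 were higher, 49 were lower and 35 did not pass, at -0.78 ± 0.82, and the position was -1.23 on slide 1 and -0.33 on slide 2. With the slide as a block 82 were lower, and without PABP1 IP replicate 2 it was 78. The class median was -0.12 after quantile normalization and turned to 0.35 after cyclic loess, where 13 were higher and 17 lower. Rpl29, a protein of the large subunit, had 113 and 140 in the GFP IP and 1588 and 753 in the PABP1 IP (-3.12 ± 0.37), with other probes from -3.50 to -2.74. Tested genes were ranked by input signal and cut into 5 bins of 2986. In the brightest bin lay 82 of the 84 genes, against 70 of 83 for the respiratory chain, 51 of 78 for the mitochondrial ribosome and 31 of 48 for the proteasome. In that bin 56.4% of all genes were lower in the GFP IP and 16.8% higher, at a median of -0.87. In the middle bin the shares were 37.3% and 28.4%, at -0.25. The part of input level in the class positions was not tested.

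On the DAZL side, a list of 14 tested mRNAs reported as DAZL targets had the highest position of the 43 classes, 2.36 ± 0.47. By the mean of a gene's probes (2.01) and by every probe on its own (1.97) it lay just below the chromatin remodellers (2.02 and 2.0). Dazl, the mRNA of the tagged protein, is itself on the list, and without it the position was 2.30. The list mixes targets reported in germ cells with those that general knowledge ties to this study, so it is not independent of these samples. Of its members 11 were higher in the GFP IP and 3 lower. The list median, 1.77, stayed above 0 under each scaling tried, the lowest being 0.46 with spike-in controls, where 5 were higher and 3 lower. Tex19.1, which acts against transposons in germ cells, had 133 and 106 in the GFP IP, 9.79 and 8.52 in the PABP1 IP and 13.3 and 11.9 in the inputs. It was higher by 13.0-fold (3.70 ± 0.19, adjusted p = 0.000459), and on both slides the GFP array was the higher. Sdad1, a gene of ribosome assembly, had 105 and 64.7 against 5.59 and 7.68 (3.66 ± 0.31), but another Sdad1 probe gave -0.71.

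Besides Dazl, Tex19.1 and Sdad1, the members of the target list ranged from -0.94 to 3.08 (Suz12). The caspase genes Casp2 (2.27 ± 0.16) and Casp9 (1.71 ± 0.23), which encode proteases of apoptosis, were both higher. Casp2 had 25.1 on both GFP IP arrays and 5.58 and 4.85 on the PABP1 IP arrays. Pam (1.44 ± 0.49) and Tex14 (0.78 ± 0.16), a gene of germ cell bridges, were higher by less. The 3 lower members were Cdc25c (-0.94 ± 0.18), Tpx2 (-0.89 ± 0.21) and Grsf1 (-0.68 ± 0.18), near the median gene at -0.59. These smaller differences depended on background correction, on the filter for dim probes, on scaling and on single arrays. With normexp background Pam (0.13, adjusted p = 0.593) and Tex14 (0.36, adjusted p = 0.0832) did not pass. With no filter on dim probes Pam, Tex14, Tpx2 and Grsf1 did not pass (adjusted p from 0.0541 to 0.0937). With spike-in scaling Casp2 (0.96), Casp9 (0.40) and Pam (0.13) did not pass and Tex14 turned to -0.54, with adjusted p from 0.103 to 0.84. With cyclic loess Tpx2 did not pass (-0.24, adjusted p = 0.355) and Grsf1 turned to 0.029 (adjusted p = 0.901). Scaled to the median of all probes, 0 of the 3 lower members passed. Pam did not pass without PABP1 IP replicate 1, PABP1 IP replicate 2 or GFP IP replicate 2 (adjusted p = 0.126, 0.136 and 0.173), nor Tpx2 without PABP1 IP replicate 2 or GFP IP replicate 2 (0.0548 and 0.0655). Grsf1 did not pass without any one of PABP1 IP replicate 1, GFP IP replicate 1 or either input (0.0922, 0.101 and 0.0543). The known targets Ddx4, a germ cell helicase, and Sycp3, of the meiotic chromosome axis, failed the detection filter in every group and have no test here.

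Pluripotency genes, which keep cells able to form all tissues and are shared by stem cells and early germ cells, lay at 1.48 ± 0.39. Of 35 tested, 19 were higher in the GFP IP, 6 were lower and 10 did not pass. The main factors did not move together. Sox2 had 38.3 and 35.1 in the GFP IP and 9.90 and 10.6 in the PABP1 IP (1.84 ± 0.16, adjusted p = 0.000593), with inputs of 8.79 and 8.06 near the PABP1 level. With spike-in scaling it was at 0.52 and did not pass (adjusted p = 0.383). Nanog had 7.53 and 6.92 against 4.64 and 4.41, a smaller difference of 0.68 ± 0.16 (adjusted p = 0.0134) that turned to -0.64 with spike-in scaling and did not pass without GFP IP replicate 1 (adjusted p = 0.0611). Pou5f1, which encodes OCT4, went the other way, with 63.5 and 36.4 against 178 and 205 (-1.99 ± 0.30, adjusted p = 0.00295) and inputs of 64.1 and 72.3. After cyclic loess it was at -0.84 and did not pass (adjusted p = 0.0593).

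The largest pluripotency difference was that of Rif1, a telomere and replication-timing gene, at 4.41 ± 0.41, with another probe at 2.34. Its signals were 1.93 and 3.69 in the GFP IP and 0.109 and 0.145 in the PABP1 IP, but 7.06 and 11.7 in the inputs, so it lay below input in both IPs. Klf5 (3.16 ± 0.17), Mycn (2.39 ± 0.20) and Tfcp2l1 (2.37 ± 0.40), all transcription factor genes, were higher. With spike-in scaling Mycn (1.08) and Tfcp2l1 (1.06) did not pass (adjusted p = 0.0648 and 0.0707). Sall4, a zinc finger gene of both stem and germ cells, had 17.3 and 20.4 against 3.17 and 2.36 (2.78 ± 0.21), while another Sall4 probe gave -0.38.

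**Figure D3:**
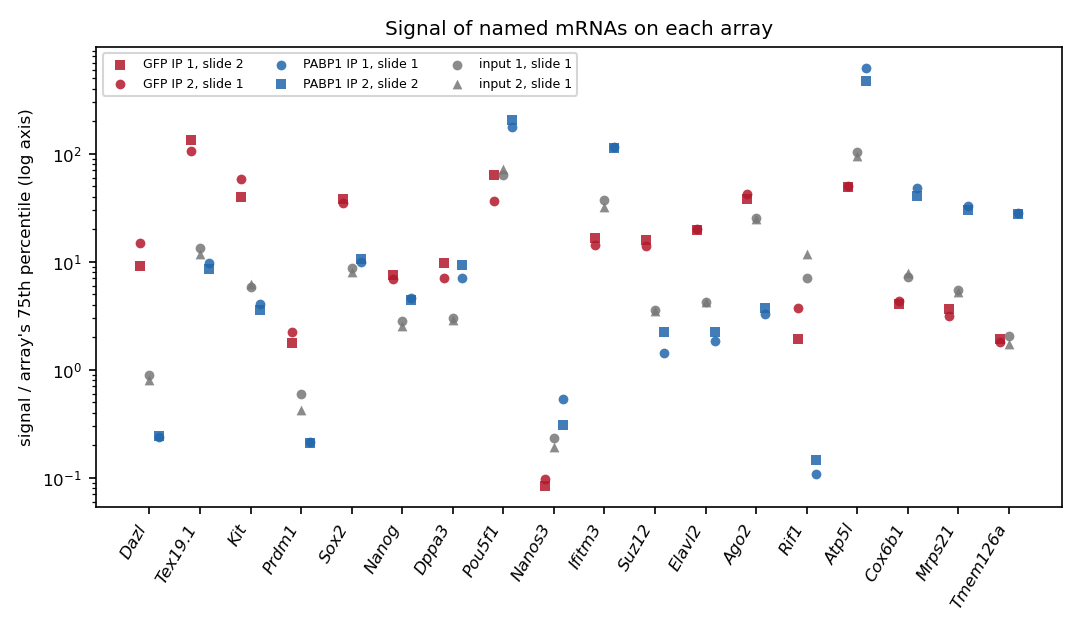
Signal of named mRNAs on each of the 6 arrays, relative to the 75th percentile of the array, on a log axis; red is GFP IP, blue PABP1 IP and grey input, and the marker shape gives replicate and slide as in the legend. Dazl, Tex19.1, Kit and Prdm1 lie higher in the GFP IP than on any other array, Pou5f1, Atp5l, Cox6b1 and Mrps21 lie highest in the PABP1 IP, and of the genes shown Dppa3 is the one whose IP arrays overlap.

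Genes of germ cell specification and migration split into a higher and a lower group. Of 26 tested, 10 were higher in the GFP IP, 8 were lower and 8 did not pass, at a position of 1.02 ± 0.14. Kit, the receptor for a survival and migration signal of germ cells, had 39.4 and 58.2 in the GFP IP, 4.05 and 3.56 in the PABP1 IP and 5.87 and 6.22 in the inputs (3.66 ± 0.23, adjusted p = 0.000459). Prdm1, the transcriptional repressor that sets germ cell fate, had 1.75 and 2.22 against 0.216 and 0.210 (3.21 ± 0.23). Bmpr2, a receptor of the bone morphogenetic proteins that induce germ cells, was at 3.67 ± 0.35, with other probes at 2.79 and 0.16. On these mRNAs the 2 GFP arrays lay above the 2 PABP1 arrays with a wide gap.

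The 3 interferon-induced membrane protein genes of the list, which mark early germ cells, were all lower. Ifitm1 had 34.7 and 34.8 in the GFP IP and 314 and 289 in the PABP1 IP (-3.12 ± 0.15), Ifitm2 was at -3.29 ± 0.20 (another probe -3.22) and Ifitm3 at -2.88 ± 0.17. Nanos3, an RNA-binding regulator of germ cell survival, was also lower, at -2.18 ± 0.30, on dim signals of 0.0827 and 0.0974 against 0.536 and 0.310. Dppa3, an early germ cell marker, did not differ beyond its spread, with 9.73 and 7.12 against 7.09 and 9.30 (0.04 ± 0.23, adjusted p = 0.898). With spike-in scaling, however, Dppa3 passed as lower (-1.28, adjusted p = 0.0283).

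Genes of the piRNA pathway and of meiosis spread as widely, with 12 of 31 higher in the GFP IP, 10 lower and 9 not past (0.58 ± 0.15). Meioc, needed for entry into meiotic prophase, was higher (2.96 ± 0.35), while the recombination gene Msh5 (-3.55 ± 0.27), the synaptonemal complex gene Syce3 (-3.38 ± 0.41) and Mael of the piRNA pathway (-2.35 ± 0.34) were lower. These 4 mRNAs are dim, with no signal above 1.53 on an IP array. Msh5 was not well above background in the GFP IP, which makes it at least 5.09-fold lower. With normexp background 6 of the class were higher.

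Polycomb genes, whose products silence developmental genes through histone marks, lay at 0.95 ± 0.18. Of 39 tested, 16 were higher in the GFP IP, 6 were lower and 17 did not pass, and 11 were lower with the slide as a block. Suz12, a core subunit of the complex that methylates histone H3, had 15.9 and 14.1 against 1.43 and 2.21 (3.08 ± 0.25, another probe 2.26). Jarid2 (3.17 ± 0.17, another probe 2.87), Mtf2 (3.0 ± 0.23, other probes 2.72 to 3.13) and Aebp2 (2.62 ± 0.17, another probe 2.62), accessory proteins of that complex, were higher too. Rnf2, the ubiquitin ligase of the other main complex, was at 2.65 ± 0.16, with another probe at -0.34. Pcgf1, a partner of Rnf2, was lower, with 0.940 and 1.17 against 7.72 and 6.44 (-2.75 ± 0.19). The class median was 0.36 here and -0.95 with spike-in scaling.

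**Figure D4:**
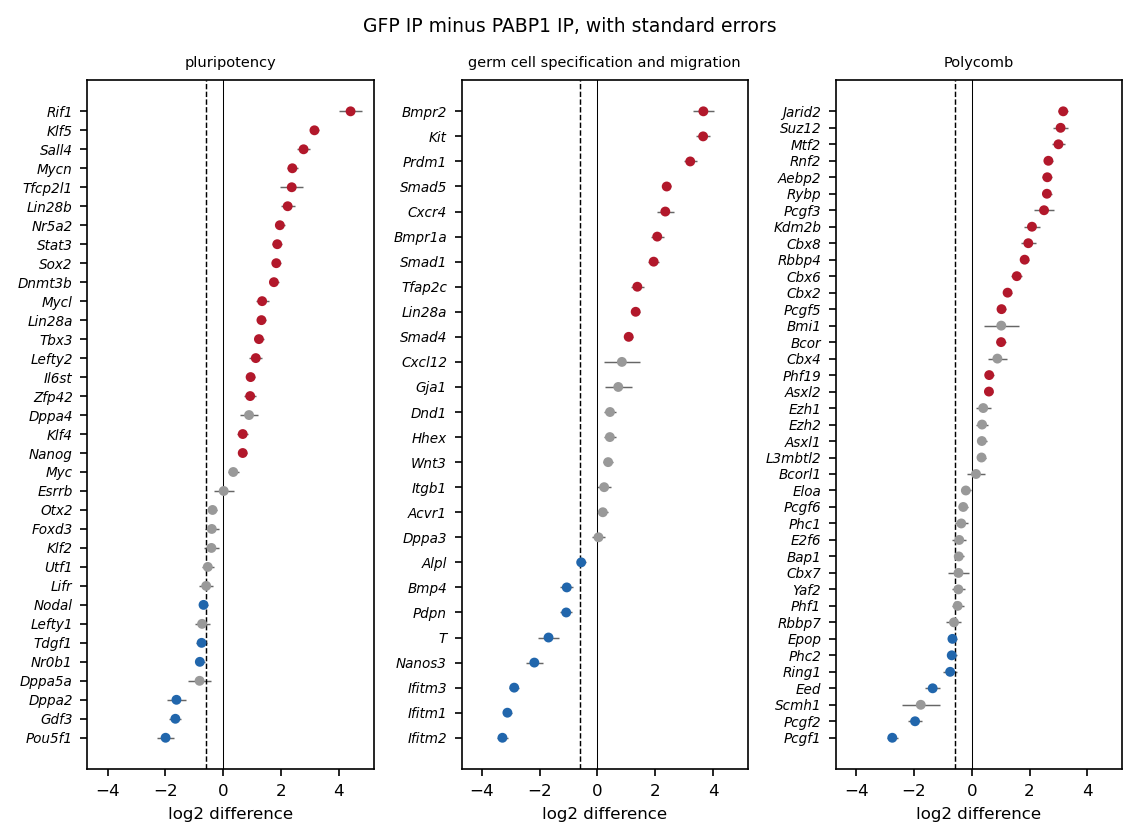
Log2 difference, GFP IP minus PABP1 IP, with limma standard errors (2 arrays per group), of tested genes of 3 classes; red points passed higher in the GFP IP, blue points passed lower and grey points did not pass, and the dashed line is the median of all genes. Pluripotency genes run from -1.99 (Pou5f1) to 4.41 (Rif1), germ cell genes from -3.29 (Ifitm2) to 3.67 (Bmpr2) and Polycomb genes from -2.75 (Pcgf1) to 3.17 (Jarid2).

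Genes that encode other RNA-binding proteins formed one of the classes furthest to the DAZL side. Of 77 genes for cytoplasmic RNA-binding and mRNA decay proteins, 46 were higher in the GFP IP (59.7%), 11 were lower and 20 did not pass, at 1.74 ± 0.19 (1.71 on slide 1 and 1.47 on slide 2). Elavl2, a binder of AU-rich elements, had 19.7 and 19.9 in the GFP IP, 1.84 and 2.23 in the PABP1 IP and 4.24 in both inputs (3.29 ± 0.17, another probe 3.32). Ago2, the effector of microRNAs, had 37.9 and 42.1 against 3.29 and 3.75 (3.51 ± 0.16, other probes 1.87 to 2.21), with inputs of 25.3 and 24.7. Cpeb1, which controls cytoplasmic polyadenylation in germ cells, was at 3.65 ± 0.27, Fmr1 of the fragile X family at 3.09 ± 0.29 and Rc3h2, a decay factor, at 2.90 ± 0.23. Cpeb3 was at 3.18 ± 0.19, but another Cpeb3 probe gave -1.15. The class median was 1.15 here, 0.51 with normexp background and -0.16 with spike-in scaling, and 18 members were lower with the slide as a block.

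Genes for nuclear RNA processing lay on both sides. Of 32 genes for SR proteins and hnRNPs, which bind pre-mRNA and steer splicing, 16 were higher in the GFP IP, 3 were lower and 13 did not pass (1.5 ± 0.14). Their median of 0.91 turned to -0.40 with spike-in scaling. Among 50 genes for spliceosome parts 10 were higher, 22 lower and 18 did not pass (0.17 ± 0.16). Within them, a grouping made after the values were seen showed 0 of 11 LSm genes higher and 9 lower, and 0 of 6 genes of the Sm ring higher and 4 lower. Of 13 PRPF genes 5 were higher and 1 lower. Snrpd2 of the Sm ring had 31.7 and 35.5 against 330 and 223 (-3.02 ± 0.23), and Sf3b1, a subunit that recognises the branch point, 1.53 and 1.88 against 0.128 and 0.154 (3.59 ± 0.20, another probe 1.18). Of 49 genes for DEAD and DEAH box RNA helicases 17 were higher and 16 lower (0.72 ± 0.33), with Ddx3x, a helicase of translation initiation, at 3.60 ± 0.16.

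Chromatin remodellers, which move or evict nucleosomes, and enzymes that methylate or demethylate histones also lay on the DAZL side. Of 44 remodeller genes 28 were higher in the GFP IP (63.6%), 6 lower and 10 not past (2.0 ± 0.13), and of 46 histone methylation genes 26 were higher, 6 lower and 14 not past (1.43 ± 0.09). Smarcc1, a scaffold of the BAF complex, had 113 and 94.9 in the GFP IP and 9.73 and 9.58 in the PABP1 IP (3.42 ± 0.17, another probe 1.17). The inputs, at 101 and 92.6, lay at the GFP level. Baz1a (3.58 ± 0.22) and Arid2 (3.24 ± 0.20, other probes 3.26 and 0.85) were also higher. Kdm5a (3.99 ± 0.33, another probe 4.36) was higher among the demethylases. Kdm7a, not well above background in the PABP1 IP, was at least 8.55-fold higher (another probe 1.96). With spike-in scaling the median of the remodellers was 0.10 and that of the histone enzymes -0.48.

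Against input, the classes differed in which IP moved. The position of the respiratory chain was 1.08 in the PABP1 IP minus input and -0.61 in the GFP IP minus input, and that of the mitochondrial ribosome was 1.03 and -0.33. The chromatin remodellers lay at -1.60 in the PABP1 IP and -0.09 in the GFP IP, and the histone methylation genes at -1.11 and 0.24. Polycomb genes (1.01 in the GFP IP and -0.01 in the PABP1 IP) and SR proteins and hnRNPs (1.51 and 0.06) lay off the median gene in the GFP IP. Reported DAZL targets (2.31 and -0.60) and cytoplasmic RNA-binding proteins (0.96 and -0.69) lay on opposite sides. These contrasts share the input arrays and share IP arrays with the main comparison, so they describe the same values and give no added support. Over all genes, those higher in the GFP IP had a median of 0.80 in the GFP IP minus input and -0.87 in the PABP1 IP minus input, and those lower had -0.82 and 0.87.

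Genes of apoptosis lay within their SD of the median gene (0.25 ± 0.26). Against 22.2% and 41.5% of all genes, 12 of 41 were higher in the GFP IP (29.3%), 18 lower (43.9%) and 11 not past. Without GFP IP replicate 1 the higher ones were 7. Bax, which permeabilises the mitochondrial membrane, had 25.4 and 26.7 against 197 and 161 (-2.77 ± 0.18), and Cycs, which encodes cytochrome c, was at -2.66 ± 0.18. Pmaip1, which encodes the death activator NOXA, had 42.7 and 40.9 against 5.95 and 7.32 (2.66 ± 0.19). Xiap, a caspase inhibitor, was higher on dim signals (2.89 ± 0.22, another probe 3.56). Both promoters and inhibitors of cell death thus stood among the higher genes.

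Several further classes had members on both sides with positions closer to the median gene. Of 64 genes for translation initiation and elongation factors 15 were higher and 34 lower (-0.09 ± 0.01), and the position was 0.32 after quantile normalization and 0.36 after cyclic loess. Of 49 genes for cyclins, cyclin-dependent kinases and their inhibitors 17 were higher and 16 lower (0.70 ± 0.11). Among them Ccnt2 was at 3.57 (other probes 0.55 and 3.36) and Cdk17 at 3.25 (other probes 2.64 and 2.97). Of 45 mitosis and replication genes 10 were higher and 11 lower (0.66 ± 0.04), the latter 6 without PABP1 IP replicate 2. Of 61 genes of the MAP kinase cascade 19 were higher and 22 lower (0.58 ± 0.12), the latter 14 without GFP IP replicate 1 and 13 without PABP1 IP replicate 1. Of 247 Zfp zinc finger genes 69 were higher and 67 lower (0.54 ± 0.04).

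Ubiquitin genes are given by their step. Deubiquitinases of the USP family lay at 1.07 ± 0.07, with 16 of 44 higher and 6 lower. RING and TRIM ligases lay at 0.52 ± 0.12, with 35 of 104 higher and 22 lower. F-box and kelch adaptors lay at 0.60 ± 0.11, with 28 of 86 higher and 26 lower. Conjugating enzymes lay at 0.14 ± 0.17, with 7 of 33 higher and 14 lower. Usp37, a cell cycle deubiquitinase, was at 3.80, with other probes at 0.56 and 3.32. Solute carriers (44 of 241 higher and 93 lower) and Rab GTPases (11 of 52 higher and 34 lower) lay at 0.14 ± 0.17 and -0.33 ± 0.02. On slides 1 and 2 the position of the Rab GTPases was -0.38 and -0.26, and that of the USP family 1.12 and 0.88. Both pairs lay further apart than the SD of the class.

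Among the remaining classes, 26 histone genes, whose main transcripts lack a poly(A) tail, lay at 0.10 ± 0.40, with 3 higher and 9 lower (14 lower with the slide as a block and without PABP1 IP replicate 2). Against input their position was -1.24 in the GFP IP and -1.47 in the PABP1 IP, so both IPs held less of them relative to other genes. Heat shock genes (11 of 72 higher and 32 lower) lay at 0.09 ± 0.09. Chaperonin and prefoldin genes (3 of 15 higher and 9 lower) lay at -0.35 ± 0.25, and at 0.22 after quantile normalization and 0.20 after cyclic loess. Aminoacyl-tRNA synthetase genes (2 of 35 higher and 16 lower) lay at 0.01 ± 0.09, with 10 lower without GFP IP replicate 2. Collagens, laminins and integrins (6 of 56 higher and 25 lower) lay at 0.03 ± 0.08, with 12 lower without GFP IP replicate 1 and 16 without PABP1 IP replicate 1. Transcription factors of the homeobox, SOX, FOX, KLF and GATA families (24 of 88 higher and 21 lower) lay at 0.13 ± 0.30, with 39 lower with the slide as a block and 13 without PABP1 IP replicate 1.

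Non-coding RNAs lay on both sides. Of 224 genes that the reference table calls lncRNA 18 were higher in the GFP IP and 120 lower, at a median difference of -1.38, against -0.55 for 12852 protein-coding genes. Of 12 tested nuclear and imprinted RNAs on a list 4 were higher and 2 lower (1.05 ± 1.23). Malat1, a nuclear RNA, was by its brightest probe at least 11.7-fold higher in the GFP IP (adjusted p = 0.00108). That probe had signals of 0.468 and 1.18 there and 0.0419 and 0.0352 in the PABP1 IP, where it was not well above background. The bound held for that probe and background alone, since the log2 difference was 1.29 with normexp background and 1.99 by the mean of its probes. In the inputs the brightest probe stood at 20.7 and 29.2, above both IPs, and other Malat1 probes gave 0.30 and 1.38. Neat1, another nuclear RNA, did not pass (0.39 ± 0.16, adjusted p = 0.0828), though it did as higher with 4 other scalings (0.67 to 1.06) and was at -0.92 with spike-in scaling (adjusted p = 0.119), with inputs of 30.3 and 30.9 against at most 6.54 in an IP. Snhg5 (-2.16) and Gas5 (-2.08), which host small nucleolar RNAs and belong to the RNAs with a terminal oligopyrimidine start, were lower, with other probes at 1.44 and -0.17. By the mean of its probes Snhg5 did not pass (-0.36, adjusted p = 0.0864).

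Besides genes given above, the largest differences toward DAZL were those of Zfx, an X-linked zinc finger gene (4.60 ± 0.17, but another probe 0.09), Rbm47, an RNA-binding protein gene (4.26 ± 0.16), Dcaf12l1 (4.12 ± 0.21), Otud4, a deubiquitinase (4.04 ± 0.18, other probes 3.80 and 1.13), Srek1, a splicing regulator (3.96 ± 0.45), and Cyp51, a sterol enzyme (3.88 ± 0.17). Rbm47 had 2.63 and 2.74 in the GFP IP, 0.131 and 0.149 in the PABP1 IP and 0.520 and 0.577 in the inputs. Cyp51 had 14.1 and 12.8 against 0.873 and 0.951, with inputs of 0.948 and 1.08 at the PABP1 level. Other probes gave smaller differences, 1.72 and 2.0 for Cyp51 and 2.08 and 2.7 for Srek1. The kelch gene Klhl28 (4.14 ± 0.19) and the zinc finger gene Zfp26 (4.02 ± 0.19, other probes from -1.14 to 3.88) completed the measured ones. Thoc2 of mRNA export and the imprinted host RNA Snhg14, not well above background in the PABP1 IP, were at least 9.23-fold and 3.94-fold higher. With normexp background Snhg14 was at 0.41 and did not pass (adjusted p = 0.153).

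Toward PABP1, the largest differences were those of Tyrobp, an adaptor of immune cell receptors (-4.38 ± 0.24), Npb, a neuropeptide gene (-3.94 ± 0.15), and Tmem126a, a mitochondrial assembly factor (-3.92 ± 0.16). Tyrobp had 0.178 and 0.233 in the GFP IP, 3.71 and 4.82 in the PABP1 IP and 0.484 and 0.610 in the inputs. Tmem126a had 1.91 and 1.79 against 28.3 and 27.8, with inputs of 2.04 and 1.74, so the GFP IP stood at the input level. Hsbp1l1 (-3.84), Plac8 (-3.79), Tm4sf5 (-3.72), Ctla2b (-3.66), Gng13 (-3.62), Saxo2 (-3.59), Uxt (-3.57) and Ly6g6c (-3.57) were lower as well. Uxt, a prefoldin-like gene, had another probe at -3.79. Tomm20l, H2ac8, Cda and Skap1, not well above background in the GFP IP, were at least 9.98-fold, 6.05-fold, 5.07-fold and 2.98-fold lower.

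The labelled cell type was checked in the inputs. Of 11 primordial germ cell markers 9 could be tested and all 9 were well above background on both inputs. Ddx4 was not tested and Prdm14 was not found by that name. This count does not single out germ cells. The list holds Dazl, which these cells carry as a tagged copy, and Pou5f1, Nanog and Sox2, which stem cells share. Markers of other cells were present too, with 4 of 5 fibroblast markers, 5 of 7 cardiac markers, 3 of 5 neural markers, 2 of 7 visceral endoderm markers, 2 of 4 trophoblast markers and 1 of 5 endothelial and blood markers tested and detected in both inputs. The inputs are bulk material, so at these levels fewer cells of a type and less RNA per cell cannot be told apart. Summed over tested members, the fibroblast signal was 92.4 and 125 in the inputs, 120 and 101 in the PABP1 IP and 31.6 and 55.4 in the GFP IP, and all 4 members were lower in the GFP IP. The cardiac sum was 11.1 and 10.8 in the inputs, 4.98 and 4.08 in the PABP1 IP and 2.32 and 2.48 in the GFP IP, with 4 of 5 lower. The germ cell sum was 97.9 and 104 in the inputs, 213 and 243 in the PABP1 IP and 196 and 180 in the GFP IP, with 6 of 9 higher and 2 lower. Pou5f1 made up most of the germ cell sum in the PABP1 IP. Without it, a sum added after the values were seen, the order turned. That sum, which still holds Dazl, was 33.7 and 31.2 in the inputs, 34.9 and 37.9 in the PABP1 IP and 133 and 144 in the GFP IP.

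Over longer lists chosen for this comparison, 13 of 16 fibroblast genes and 18 of 21 muscle genes were lower in the GFP IP (positions -1.16 ± 0.53 and -0.90 ± 0.13), and 5 of 11 neural genes were higher and 1 lower (1.42 ± 0.40). The fibroblast position was -0.59 on slide 1 and -1.58 on slide 2. Trophoblast (0 of 7 higher and 4 lower), visceral endoderm (1 of 13 and 7) and endothelial and blood genes (3 of 12 and 4) lay at -0.93 ± 0.78, -0.30 ± 0.15 and 0.03 ± 0.62. Pecam1, an adhesion gene of endothelium that stem cells also express, was higher (3.19), and Tubb3, a neuronal tubulin, was higher (2.22), but not with spike-in scaling (0.91, adjusted p = 0.122). The part of other cell types in the class positions was not tested.

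Different probes of a gene did not always give the same answer. Of 4733 genes with more than 1 kept probe, 3245 passed by their brightest probe, and for 732 of these another kept probe had the opposite sign. In the authors' deposited table, 9509 genes could be matched one to one, and of 6048 that passed here 5814 had a ratio of deposited group means with the same sign.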

How the data were processed

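Of 6 arrays in 3 groups of 2, the scanner files deposited by the authors give intensity per spot and, per the file headers, the background-subtracted processed signal of Agilent Feature Extraction 9.1.3.1. The authors also deposited a table of group means of signal, used for a sign check alone. Non-control spots without an outlier flag were averaged per probe as log2 and scaled to the 75th percentile of the array. A probe was kept if well above background on both arrays of a group (21061 of 41174), and the brightest kept probe, by its mean over the 6 arrays, stood for the gene. Names came from accessions (22951 probes) or symbols through a RefSeq table of GRCm38.p6, and 8468 probes kept the file's name. The fit used limma 3.58.1 (R 4.3.3, lmFit and eBayes) on all 6 arrays by group, with 3 residual degrees of freedom and two-sided tests; 6 genes were fitted on fewer arrays. Where the dimmer IP was not well above background on either array, the fold is at least the brighter mean over the dimmer IP's own signal or the lowest detected signal of the array, whichever is larger. The fit was tested on simulated data of 14924 genes, with 100 genes changed at each of 2 sizes, far fewer than passed here. It recovered 2 of 100 at a log2 difference of 1 and 46 of 100 at 2, with 3 false calls.

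The members and the 43 classes were chosen with earlier results of these data known; 49 genes belong to more than 1 class. Named genes are the 15 largest differences in each direction past the threshold with detected, non-overlapping arrays and an official symbol, up to 6 members per class with the largest differences, and a fixed set; the reported DAZL targets are given beyond that number, and the other exceptions are marker genes and counts by complex. Symbol patterns took in a few genes of other function, such as methyltransferases of elongation factors. Replicate numbers were not used to pair the arrays in the main fit. Some items are not reported here. Transcript features were not used. The tested alternatives were other background, scaling, filters, probes, blocks and arrays left out. The target list without Dazl and the germ cell sum without Pou5f1 were added after seeing the data.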

Additional observations from a re-analysis of the deposited data

How the results depend on the processing

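With 2 arrays per group a gene that did not pass is not shown to be equal, and dim probes carry only bounds. Of 285 named genes, 242 kept direction and side of the threshold with spike-in scaling, the lowest number among the fits that tested all 285, and 265 with cyclic loess. By the labels the replicate numbers pair nothing. Replicate 1 minus 2 of the GFP IP correlated at -0.653 with replicate 1 minus 2 of the PABP1 IP. Crossed replicate numbers and a slide effect cannot be told apart here, since the crossed pairing is also the slide pairing. The count of genes past the threshold was 8562 with a replicate block and 11469 with the slide as a block. It was 8476 with the 4 IP arrays, 6703 with a minimum log2 difference of 0.5, and 7866 to 9014 without one array (higher 2842 to 2997, lower 5024 to 6017). Every kept probe on its own gave 5258 higher, cyclic loess 4114 lower, and spike-in scaling 664 higher and 10261 lower.

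Of the 11 main classes, 10 had positions that moved beyond their SD under at least 1 alternative, as follows, and the cause was not tested. Of the other 32 classes, 29 moved by more than their SD under at least 1 alternative (154 values, besides the reversals below). With normexp they were Polycomb 0.69, histone methylation 0.85, SR proteins and hnRNPs 1.24, cytoplasmic RNA-binding 0.86 and remodellers 1.36. With quantile normalization they were respiratory chain -0.996, mitochondrial ribosome -1.05, proteasome -0.52, cytosolic ribosome 0.16 and cytoplasmic RNA-binding 1.54. With cyclic loess they were -1.03, -1.10, -0.51, 0.42 and 1.55 in the same order. With no filter on dim probes they were respiratory chain -1.94, proteasome -1.09, Polycomb 0.71, histone methylation 1.08, SR proteins and hnRNPs 1.23, cytoplasmic RNA-binding 1.43, remodellers 1.63 and reported DAZL targets 1.90. With detection on all 4 IP arrays they were histone methylation 1.16, cytoplasmic RNA-binding 1.31 and remodellers 1.76. The mean of a gene's probes gave SR proteins and hnRNPs 1.69, and every probe on its own gave proteasome -0.72. Slide 1 alone gave respiratory chain -1.93 and proteasome -1.03, and slide 2 alone gave histone methylation 1.32, cytoplasmic RNA-binding 1.47 and remodellers 1.84.

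Without one array, positions ranged from 0.80 to 1.15 (Polycomb), 1.18 to 1.60 (SR proteins and hnRNPs), 1.82 to 2.0 (remodellers), 1.41 to 1.91 (cytoplasmic RNA-binding), -1.18 to -0.42 (cytosolic ribosome), 1.20 to 1.46 (histone methylation), -1.70 to -1.40 (mitochondrial ribosome), 1.18 to 1.57 (pluripotency), -1.08 to -0.75 (proteasome), 2.32 to 2.49 (reported DAZL targets) and -1.85 to -1.67 (respiratory chain). Among classes whose position was larger than its SD, signs reversed for glycolysis and the tricarboxylic acid cycle (0.084 quantile, 0.034 cyclic loess), chaperonin and prefoldin (0.22 quantile, 0.20 cyclic loess, 0.0061 mean of probes) and translation factors (0.32 quantile, 0.36 cyclic loess, 0.048 every probe). They also reversed for heat shock (-0.16 no filter, -0.025 mean of probes, and -0.075 to 0.15 without one array), core spliceosome (-0.060) and neural markers (-0.078), the last pair with no filter. Of the named genes, signs reversed for Aldoa (0.034 cyclic loess), Grsf1 (0.029 cyclic loess), Snhg11 (-1.54 with detection on all 4 IP arrays), Ube2k (0.036 mean of probes) and, with spike-in scaling, Elavl3 (-0.17), Nanog (-0.64), Nars2 (-0.0064), Tex14 (-0.54) and Vwf (-0.29). Signs also changed for 3 genes that had not passed, Pabpc1 (0.68 quantile, 0.79 cyclic loess, -1.48 to 0.062 without one array), Neat1 (-0.92 spike-in) and Dppa3 (-1.28 spike-in, where it passed as lower, and -0.19 to 0.26 without one array). Without Dazl, an alternative chosen after seeing the data, the reported DAZL targets lay at 2.30.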
